A study of Mus musculus with 6 samples.

Results

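The cytosolic ribosomal protein genes of the embryonic mouse kidney's ureteric epithelium are described here, in its growing tips and in its stalks. They were taken by symbol: names of the form Rpl or Rps followed by a number, together with Rplp0, Rplp1, Rplp2 and Rpsa, leaving out names that contain -ps, which mark pseudogenes. The rule found 89 gene symbols, 37 of the small and 52 of the large ribosomal subunit, and 85 of them had values, of 21456 symbols with values in the table. The tip group held 3 libraries of cells positive for a red Wnt11 reporter and a green Hoxb7 reporter. The stalk group held 3 libraries of cells positive for the green Hoxb7 reporter and negative for the red Wnt11 reporter. All libraries came from kidneys of CFW mice at E16.5, an embryonic stage at which the ureteric tree is still branching, and all cells of both groups carried the Hoxb7 reporter, which marks the ureteric tree as a whole. The labels do not say whether the libraries came from separate animals or pools, so the p-values below cover the scatter among these samples alone, and that scatter may be technical.

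A ribosome joins a small subunit, which holds the messenger RNA and reads its codons, to a large subunit, which links the amino acids and threads the new protein through an exit tunnel. Each subunit is ribosomal RNA bound by many small, mostly basic proteins, most of which are present in a single copy per ribosome, and the cell makes them in step. Their messenger RNAs begin with a terminal oligopyrimidine tract (TOP), through which the growth kinase mTOR and the protein Larp1 control their translation. Mammalian genomes also hold many processed pseudogenes of ribosomal proteins, which are intronless copies of the spliced messenger RNA.

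Levels are in RPKM, a read number divided by transcript length and by library size, so they can be compared between genes and always stand relative to the rest of the library. Where a symbol had several rows, their RPKM was added. Summed RPKM over all genes lay between 345123 and 366035 per library, and 12194 to 12472 genes reached 1 RPKM. The table holds no counts, so the depth is unknown. The sorted groups carried their markers: all 5 tip markers tested (Wnt11, Ret, Etv4, Etv5, Gfra1) were higher in tip, and all 5 stalk markers (Aqp2, Aqp3, Upk3a, Krt19, Wnt7b) were higher in stalk. The cells were sorted on a Wnt11 reporter, so Wnt11 itself is not an independent check of the sort. Of the general ureteric markers, 1 was higher in tip, 2 in stalk and 2 were not called. Tip replicate 2 and stalk replicate 1 departed from their groups in a shared way: their deviations from the group means correlated at 0.559 across genes.

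Most of the RPKM of ribosomal protein sequence stood under the names of processed copies and not under the gene symbols. Of 2391 pseudogene or unnamed symbols whose transcripts were searched, 468 matched the transcript of 1 of 73 ribosomal protein genes with at least 90% identity over at least 70% of the copy. The coding stretches below show how alike the genes and their leading copies are. They are shown for Rps6 and Rpl12, which had some of the largest fold changes by symbol. In each set come the gene, its copy with the highest RPKM and the next copy, with bases that differ from the gene in capitals. All are written in the sense direction, from the GENCODE M21 transcripts.
Rps6: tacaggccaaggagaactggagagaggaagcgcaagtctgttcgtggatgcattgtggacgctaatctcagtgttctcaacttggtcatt
Rps6-ps4: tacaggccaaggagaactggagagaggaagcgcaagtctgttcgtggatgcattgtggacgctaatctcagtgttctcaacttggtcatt
Gm8172: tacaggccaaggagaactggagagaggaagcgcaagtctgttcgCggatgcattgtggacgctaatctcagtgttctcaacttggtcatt
Rpl12: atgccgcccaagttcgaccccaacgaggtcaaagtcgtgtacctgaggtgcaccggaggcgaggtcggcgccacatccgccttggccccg
Gm10275: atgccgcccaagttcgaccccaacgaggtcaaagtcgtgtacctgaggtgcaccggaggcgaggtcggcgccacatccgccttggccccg
Gm15793: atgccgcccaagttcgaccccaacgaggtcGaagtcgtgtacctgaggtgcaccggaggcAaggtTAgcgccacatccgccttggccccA

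The Rps6 gene lies at chr4:86854660-86857412 on the minus strand (GRCm38), and the stretch covers coding bases 250 to 339, counted from 1 at the start codon. Rps6-ps4, a processed pseudogene at chr2:75191073-75191822 on the minus strand, was identical to Rps6 over all 750 coding bases. It was listed at 871 RPKM over the 6 libraries, and Rps6 itself at 4.48 RPKM. Gm8172, a processed pseudogene at chrX:69605496-69606245 on the minus strand, differed at 6 coding bases, T294C in the stretch shown, and was listed at 1.36 RPKM. The Rpl12 set had the same form, with the gene at chr2:32961559-32965345 on the plus strand and coding bases 1 to 90 shown. Gm10275, a transcribed processed pseudogene at chr10:29698746-29699380 on the minus strand, was identical over all 498 coding bases and was listed at 964 RPKM, with Rpl12 at 26.9 RPKM. Gm15793, at chr1:66849108-66849602 on the minus strand, differed at 15 coding bases, among them A31G, G61A, C66T, G67A and G90A, and was listed at 0.51 RPKM. Reads of a gene and of a copy identical to it over the coding sequence cannot be told apart there, so the split between the names was not tested.

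In most families the copy with the highest level was also the one most like the gene, in 57 of 62 with ties included. In these 62 genes with at least 2 copies and at least 1 RPKM in their copies, the leading copy had a median identity of 99.6% with the gene's transcript, and 17 of the 62 were identical. The other 392 copies had a median identity of 97.1%, and 3 of them were identical. The leading copy held a median of 92.4% of the copies' RPKM. Among 80 protein-coding genes with values, copies held over 50% of the summed RPKM in 59 genes, over 90% in 42 and under 10% in 18.

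**Figure D1:**
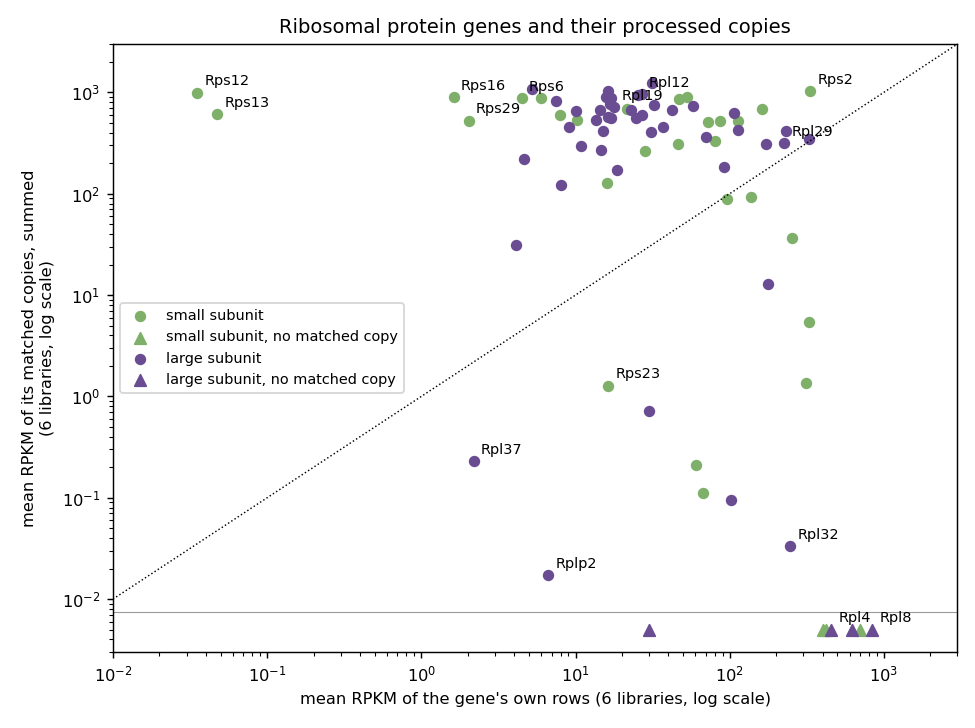
Mean RPKM over the 6 libraries of each protein-coding ribosomal protein gene (horizontal, log scale) against the summed mean RPKM of its matched copies (vertical, log scale), with equality dotted. Genes with no matched copy are triangles set below the grey line at an arbitrary height; Rps12 and Rps13 lie at the far left, under 1 RPKM, and Rpl8, with no copy, at the far right.

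The levels under the gene symbols were spread widely. The symbols ran from 0.04 RPKM for Rps12 to 837 RPKM for Rpl8, with a median of 30.1 RPKM, and 24 of 85 reached 100 RPKM. The quartiles of the 80 protein-coding genes stood apart by a factor of 7.41 by symbol and by 2.58 with the copies added. With copies the median was 563 RPKM, 72 of 80 genes reached 100 RPKM, and the lowest were Rpl37 (2.41 RPKM), Rplp2 (6.66 RPKM) and Rps23 (17.6 RPKM). Another symbol, Rps23-ps, was listed at 970 RPKM but is not in GENCODE M21 and was not matched to a gene.

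Among the highest symbols by mean level were Rpl8 (837 RPKM), Rps3a2 (658 RPKM), Rpl41 (624 RPKM), Rpl4 (457 RPKM), Rps9 (422 RPKM), Rps3 (402 RPKM), Rps2 (334 RPKM) and Rplp1 (327 RPKM). Of these, Rpl8, Rpl41, Rpl4, Rps9 and Rps3 had no matched copy at all. Rpl23, at 30.1 RPKM, had none either. Rps3a2 is itself annotated as a processed pseudogene, of Rps3a1. Median level by symbol was 457 RPKM in the 7 genes without a copy, 30.3 RPKM in 48 genes with 1 to 5 copies and 25.5 RPKM in 25 genes with more than 5 copies. Across these 80 genes, which share libraries and are not independent, the number of copies and the level had a Spearman rho of -0.37.

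Symbols at or near 0 followed the same split. Rps12, a protein of the small subunit's beak, was listed at 0.04, 0.04 and 0.04 RPKM in tip and at 0, 0 and 0.09 RPKM in stalk. Its copy Rps12-ps3 was listed at 1024, 1279 and 1148 RPKM in tip and at 715, 908 and 781 RPKM in stalk. Rps13 was listed at 0, 0.20 and 0 RPKM in tip and at 0.08, 0 and 0 RPKM in stalk, with Rps13-ps2 at a mean of 493 RPKM. Rps12l2 was the third symbol under 1 RPKM, with a mean of 0.17 RPKM, and none of the 3 was tested. Rps27, Rpl3l, Rpl10l and Rpl39l had no value in any library, only question marks. In mouse, Rpl10l and Rpl39l are known as testis paralogs and Rpl3l as a paralog of heart and skeletal muscle.

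Ribosomal protein genes as a group stood higher in tip, with small differences that pointed the same way in nearly every gene. Of the 82 symbols tested, 39 (47.6%) were higher in tip with limma at a Benjamini-Hochberg adjusted p under 0.05, where 26.1% of all 12532 genes tested were. In the other direction, 1 symbol (1.22%), Rps4y2, was higher in stalk, where 22.5% of all genes were, and 42 were not called. At an unadjusted p under 0.05 the counts were 49 toward tip and 3 toward stalk. The median log2 fold change, tip minus stalk, was 0.36 on log2(RPKM + 1), a ratio of 1.28, beside 0.05 for all genes tested. In sign, 77 of the 82 were positive, and in 44 all 3 tip libraries lay above all 3 stalk libraries (background 31.3%). In 2 symbols, Rps4y2 and Rpl39, all stalk libraries lay above all tip libraries (background 26.5%). In sorted bulk libraries, fewer cells of a kind and less RNA per cell cannot be told apart.

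The count leaned on single libraries more than the direction did. Without tip replicate 3 it was 25 symbols higher in tip, and over the other libraries left out in turn it ran from 26 (without stalk replicate 3) to 50 (without stalk replicate 2). The calls toward tip among all genes changed too, from 3274 of 12532 with all libraries. They were 2541 of 12516 without tip replicate 3, 2910 of 12500 without stalk replicate 3 and 3077 of 12467 without stalk replicate 2. Without tip replicate 2 and stalk replicate 1, 28 symbols passed toward tip and 4 toward stalk, which were Rps4y2, Rpl11, Rpl24 and Rpl39. Of the 39 symbols, 21 were called higher in tip with each library left out in turn, 9 of the small and 12 of the large subunit. They were Rpl5, Rpl7, Rpl7a, Rpl7l1, Rpl10, Rpl12, Rpl14, Rpl27, Rpl30, Rpl36a, Rplp0, Rplp2, Rps2, Rps3, Rps3a2, Rps3a3, Rps4x, Rps6, Rps25, Rps26 and Rpsa, and of these Rplp2 lost its call without both libraries named above. Those not called with the highest row per symbol included Rpl7a (0.27, limma adjusted p = 0.334), Rplp2 (0.55, limma adjusted p = 0.102), Rpl36a, Rps2 and Rps3. The other 18 lost the call without at least 1 library, at limma adjusted p between 0.0509 and 0.158. Tip replicate 3 decided 16 of them, stalk replicate 3 decided 14, tip replicate 2 decided 10, stalk replicate 1 decided 8, tip replicate 1 decided 5 and stalk replicate 2 decided 2. They included Rpl3, Rpl4, Rpl8, Rpl10a, Rpl13, Rpl15, Rpl19, Rpl22, Rpl23, Rpl27a, Rpl29, Rpl36al, Rpl38, Rps10, Rps15, Rps19 and Rps20.

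When a gene was counted with its matched copies, an alternative chosen after seeing the data, 46 of 80 protein-coding genes (57.5%) were higher in tip and none in stalk, against a background of 26.2% and 22.8%. At an unadjusted p under 0.05 this alternative had 60 genes toward tip and 0 toward stalk, and its only gene with a negative fold change was Rpl39 (-0.07, limma adjusted p = 0.68).

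**Figure D2:**
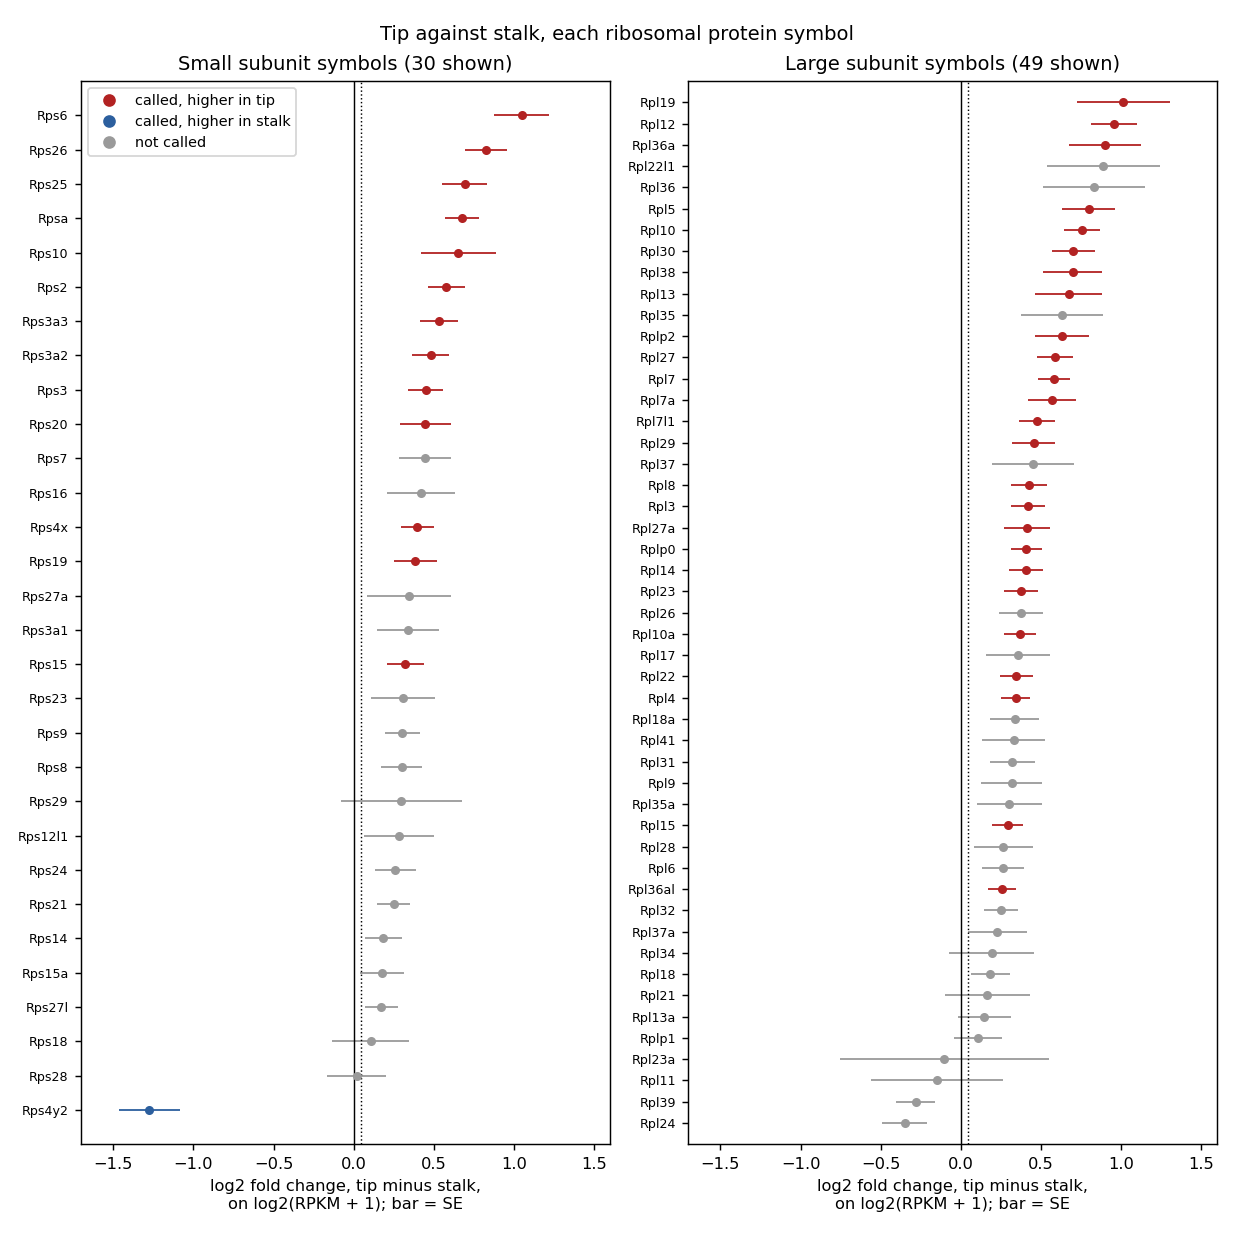
Log2 fold change (tip minus stalk, on log2(RPKM + 1), horizontal) of 30 tested symbols of the small subunit (left) and 49 of the large subunit (right), with bars of 1 SE and the colour giving the limma call. The solid line is 0 and the dotted line the median of all genes (0.05); nearly all symbols lie to the right, Rps4y2 far to the left.

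Summed over the symbols, ribosomal protein RPKM was higher in each tip library than in any stalk library. The sums were 9829, 10617 and 10771 RPKM in tip and 7213, 8922 and 8183 RPKM in stalk. As a share of the library this was 2.85%, 3.0% and 3.01% in tip and 2.08%, 2.44% and 2.32% in stalk. The groups did not overlap, and stalk replicate 1 was the lowest library and stalk replicate 2 the highest of its group. With matched copies the shares were 13.2%, 14.2% and 14.1% in tip and 9.96%, 11.5% and 10.7% in stalk, so copies held 4.10 to 4.32 times as much RPKM as the protein-coding genes in every library. The mean ratio of tip to stalk was 1.28 by symbol and 1.27 with copies.

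RPKM divides a library among its genes, and other parts of the library moved too. Transcripts of the mitochondrial genome took 4.74%, 4.27% and 4.90% of the RPKM in tip and 7.68%, 7.32% and 6.80% in stalk. Libraries were also scaled to the same sum over genes that are neither members by symbol nor of the mitochondrial genome. Matched copies outside the symbol rule stayed in that sum. With this scaling 41 symbols were higher in tip and 1 in stalk, with a median log2 fold change of 0.34. The 5 proliferation markers (Mki67, Top2a, Cdk1, Mcm5, Pcna) were all higher in tip, with summed levels of 397, 336 and 390 RPKM in tip and 100, 95.3 and 112 RPKM in stalk. All 6 endothelial markers (Pecam1, Cdh5, Kdr, Plvap, Emcn, Tek) were higher in stalk, with none at 0 in either group and sums of 5.03, 7.84 and 6.87 RPKM in tip and 61.9, 36.7 and 47.1 RPKM in stalk. Of 5 immediate early genes 3 were higher in stalk (Jun, Atf3, Hspa1a), with sums over all 5 of 1780, 1541 and 2363 RPKM in tip and 2282, 3674 and 3332 RPKM in stalk. Jun lost its call without tip replicate 1, tip replicate 2, stalk replicate 2 or stalk replicate 3 (limma adjusted p = 0.105 to 0.134). Fos was called higher in stalk when scaled to the sum of other genes (limma adjusted p = 0.0435) or by median ratios (0.0388), and without tip replicate 3 (0.0254) or stalk replicate 1 (0.0097). The part of these differences in the ribosomal protein result was not tested.

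Both subunits stood higher in tip. Of 33 small subunit symbols, 14 (42.4%) passed the test toward tip and 1 toward stalk, with a median log2 fold change of 0.34. Among all genes tested, 26.1% passed toward tip and 22.5% toward stalk, with a median of 0.05. Of 49 large subunit symbols 25 (51.0%) were higher in tip and none in stalk, with a median of 0.37. At an unadjusted p under 0.05 there were 30 large subunit symbols toward tip and 2 toward stalk. Summed small subunit RPKM was 5088, 5569 and 5602 in tip and 3770, 4562 and 4171 in stalk. Summed large subunit RPKM was 4741, 5048 and 5169 in tip and 3443, 4360 and 4013 in stalk. The ratios of tip to stalk were thus 1.30 for the small and 1.27 for the large subunit, and each subunit's tip libraries lay above its stalk libraries.

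The balance between the subunits hardly differed between groups by symbol. Small over large subunit RPKM was 1.07, 1.10 and 1.08 in tip and 1.10, 1.05 and 1.04 in stalk, with overlapping groups. These sums count the processed pseudogenes Rps3a2 and Rps3a3 in the small subunit. Over protein-coding genes alone the ratio was 0.857, 0.899 and 0.884 in tip and 0.885, 0.851 and 0.847 in stalk, so the large subunit had the larger sum, and the groups again overlapped. With matched copies the ratio was 0.639, 0.642 and 0.638 in tip and 0.626, 0.625 and 0.613 in stalk. There the groups did not overlap, but their means differed by 1.03-fold, and as a score over chosen genes the difference was not tested. The level of the ratio depended on the names counted, since copies held 3.23 to 3.37 times the RPKM of the small subunit genes and 4.84 to 5.17 times that of the large subunit genes.

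**Figure D3:**
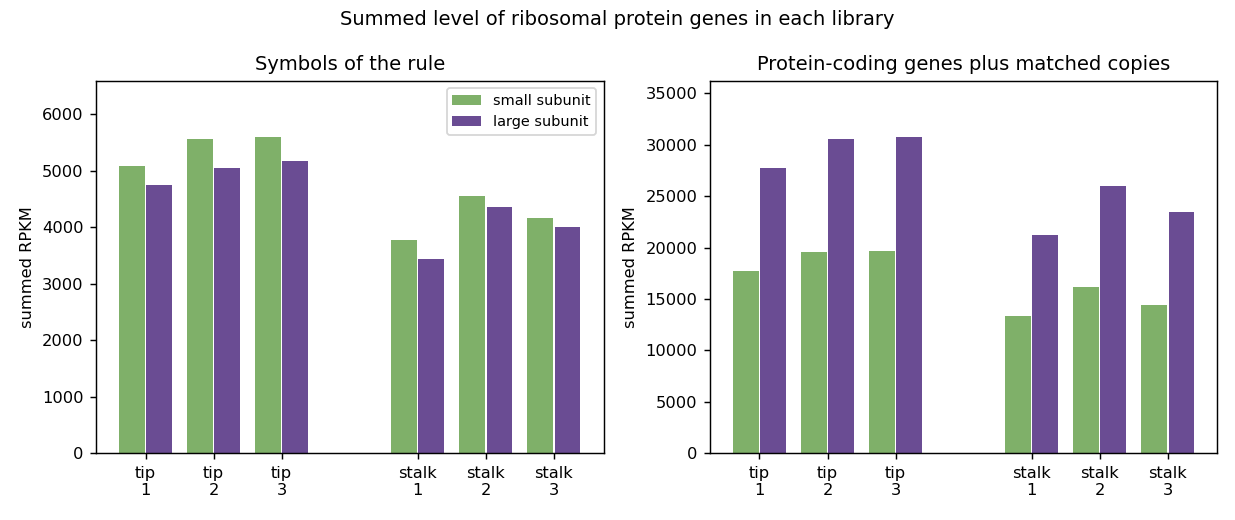
Summed RPKM (vertical) of small and large subunit genes in each library, tip replicates 1 to 3 on the left of each panel and stalk replicates 1 to 3 on the right; the left panel sums the symbols of the rule and the right panel the protein-coding genes with their matched copies. Tip bars stand above stalk bars for both subunits, and the small subunit bars are the taller in the left panel, where they include the processed pseudogenes Rps3a2 and Rps3a3, and the shorter in the right panel.

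The 7 genes without a matched copy show the difference most plainly. Their log2 fold changes ran from 0.30 (Rps9) to 0.45 (Rps3), with an SD of 0.05 across genes. Of the 7, 5 were called higher in tip, where 26.1% of all genes were. Rpl8, a large subunit protein and the highest symbol, was at 899, 976 and 1002 RPKM in tip and 637, 767 and 743 RPKM in stalk (log2 fold change 0.42, SE 0.11, limma adjusted p = 0.0128). Every tip library lay above every stalk library, but without tip replicate 3 Rpl8 was not called (limma adjusted p = 0.0578). Rpl23 was at 33.5, 33.8 and 34.8 RPKM in tip and 25.9, 29.4 and 23.2 RPKM in stalk (0.37, SE 0.11, limma adjusted p = 0.0205). Rpl41, which encodes the smallest ribosomal protein, was at 694, 606 and 764 RPKM in tip and 392, 642 and 644 RPKM in stalk, overlapped between groups and was not called (0.33, SE 0.20, limma adjusted p = 0.204). Rps9 was at 440, 464 and 492 RPKM in tip and 336, 421 and 378 RPKM in stalk, and at a limma adjusted p of 0.0501 it sat at the threshold.

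**Figure D4:**
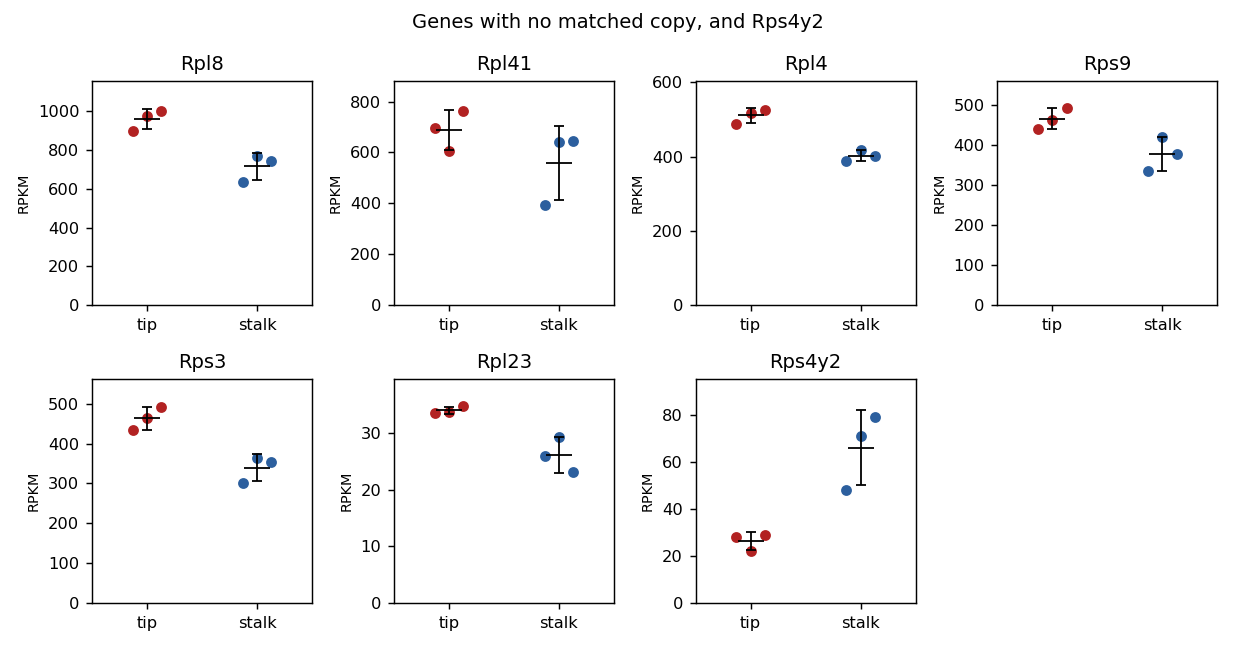
RPKM (vertical, from 0) in each tip library (left in each panel) and stalk library (right) of 6 of the 7 ribosomal protein genes without a matched copy and of Rps4y2; black bars are the mean and SD of 3 libraries. The tip points lie above the stalk points in every panel except Rpl41, where they overlap, and Rps4y2, where they lie below.

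The 2 members listed for the mRNA entry channel, where the small subunit takes in and unwinds messenger RNA, were both higher in tip. Rps2 was at 390, 421 and 387 RPKM in tip and 229, 288 and 289 RPKM in stalk (log2 fold change 0.58, SE 0.11, limma adjusted p = 0.00368). Rps3 was at 434, 464 and 493 RPKM in tip and 300, 365 and 355 RPKM in stalk (0.45, SE 0.11, limma adjusted p = 0.00963). Neither gene's groups overlapped. With the highest row per symbol neither gene was called (Rps2 0.70, limma adjusted p = 0.175, and Rps3 0.41, limma adjusted p = 0.0786). Rps2 kept its size with its 34 copies added (0.62), which gave the highest total of any family.

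On the mRNA exit side, 2 of 4 genes were higher in tip, where 26.1% of all genes were. Rpsa, which is also known as the laminin receptor precursor, was at 128, 145 and 144 RPKM in tip and 76.7, 95.1 and 88.8 RPKM in stalk (0.68, SE 0.11, limma adjusted p = 0.00124). With copies its log2 fold change was 0.75, the largest of any family. Rps26, which contacts the messenger RNA upstream of the start codon, was at 101, 120 and 112 RPKM in tip and 54.3, 73.9 and 59.0 RPKM in stalk (0.83, SE 0.13, limma adjusted p = 0.00109), but its fold change with copies was 0.32. Rps14, a protein of the platform, was at 251, 258 and 299.5 RPKM in tip and 207, 255 and 249 RPKM in stalk (0.18, limma adjusted p = 0.226). Rps28 had the smallest difference of the small subunit, at 8.98, 10.1 and 11.4 RPKM in tip and 7.66, 9.76 and 13.1 RPKM in stalk (0.02, limma adjusted p = 0.943).

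Rps6, the small subunit protein phosphorylated by the S6 kinases downstream of mTOR, had the largest fold change toward tip of all members by symbol. It was at 5.16, 6.87 and 7.12 RPKM in tip and 2.70, 2.01 and 3.01 RPKM in stalk (1.05, SE 0.17, limma adjusted p = 0.00141). Its identical copy Rps6-ps4 was at 956, 962 and 1071 RPKM in tip and 668, 831 and 736 RPKM in stalk, a log2 fold change of 0.42. With all copies added the difference of Rps6 was 0.43 on the log2 scale (SE 0.11, limma adjusted p = 0.0132), so the direction held and the size was much smaller. Among the other beak proteins, Rps10 was higher in tip (0.65, SE 0.23, limma adjusted p = 0.0487), with overlapping groups. Rps27a, made as a fusion with ubiquitin, was at 13.2, 5.63 and 8.70 RPKM in tip and 5.43, 7.89 and 6.81 RPKM in stalk and was not called (limma adjusted p = 0.31).

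In the large subunit, the 2 members listed near the peptidyl transferase centre, where the peptide bond is made, were both higher in tip. Rpl3 was at 25.8, 27.7 and 31.8 RPKM in tip and 20.7, 22.1 and 20.1 RPKM in stalk (0.42, SE 0.11, limma adjusted p = 0.0127). Rpl10, which is added late in assembly, was at 30.9, 32.8 and 33.0 RPKM in tip and 17.2, 17.5 and 21.7 RPKM in stalk (0.76, SE 0.11, limma adjusted p = 0.000887). Tip and stalk libraries did not overlap for either gene.

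Of the 3 proteins lining the exit tunnel, Rpl4 was higher in tip, at 488, 518 and 527 RPKM in tip and 387, 419 and 403 RPKM in stalk (0.34, SE 0.09, limma adjusted p = 0.0132). Rpl39 went the other way in level, at 26.7, 30.5 and 25.6 RPKM in tip and 31.3, 39.1 and 31.2 RPKM in stalk. Its groups did not overlap, but it was not called (-0.28, SE 0.12, limma adjusted p = 0.0896). Under median-ratio scaling, which shifts the median of all genes by under 0.1, it was called higher in stalk (-0.33, limma adjusted p = 0.04998). Rpl17 was not called (0.35, limma adjusted p = 0.18).

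At the rim of the tunnel exit, where targeting factors dock, 1 of 5 genes was called higher in tip. Of all genes, 26.1% were, so this count does not exceed that share. Rpl19 was at 21.1, 25.7 and 24.0 RPKM in tip and 6.11, 14.1 and 15.7 RPKM in stalk (1.01, SE 0.29, limma adjusted p = 0.0201), with stalk replicate 1 far below the rest. With copies its log2 fold change was 0.30 and not called (limma adjusted p = 0.0569). Rpl23a, which binds the signal recognition particle, was at 11.5, 11.9 and 12.4 RPKM in tip and 7.27, 48.7 and 5.54 RPKM in stalk. Stalk replicate 2 decides its sign: with it the log2 fold change was -0.10 (SE 0.65, limma adjusted p = 0.908), and without it 0.82 (limma adjusted p = 0.00401). Rpl26 (0.37), Rpl31 (0.32) and Rpl35 (0.63) were not called.

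The P-stalk recruits the elongation factors, and its base and 1 of its arms were higher in tip. Rplp0 was at 258, 280 and 252 RPKM in tip and 180, 211 and 205 RPKM in stalk (0.41, SE 0.10, limma adjusted p = 0.00913). Rplp2 was at 7.40, 10.2 and 7.27 RPKM in tip and 4.35, 4.68 and 5.92 RPKM in stalk (0.63, SE 0.17, limma adjusted p = 0.0145). Rplp1, its partner in the stalk's dimers, stood far above it at 290, 388 and 339 RPKM in tip and 271, 372 and 304 RPKM in stalk and was not called (0.10, SE 0.15, limma adjusted p = 0.591). Both proteins sit on the same ribosomes, and Rplp2 stayed low when its 1 matched copy was added.

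Rpl5 and Rpl11 carry the 5S ribosomal RNA into the large subunit and, when unassembled, bind Mdm2. Rpl5 was at 10.6, 16.4 and 12.2 RPKM in tip and 6.33, 6.88 and 7.84 RPKM in stalk (0.80, SE 0.17, limma adjusted p = 0.00484), or 0.38 with copies. Rpl11 was at 11.7, 22.8 and 11.8 RPKM in tip and 7.79, 24.5 and 22.5 RPKM in stalk (-0.15, SE 0.41, limma adjusted p = 0.789). Within each group 1 library of Rpl11 stood far from the other pair, namely tip replicate 2 and stalk replicate 1. Without those it was called higher in stalk (-0.94, limma adjusted p = 0.000579), and with its 4 copies added it was 0.28 (limma adjusted p = 0.0534).

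Of 9 genes whose loss of 1 allele causes Diamond-Blackfan anaemia in human, 4 (44.4%, against 26.1% of all genes) were higher in tip (Rps10, Rps19, Rps26, Rpl5) and none in stalk. The count was 2 without tip replicate 3, stalk replicate 1 or stalk replicate 3, each time with Rps10 and Rps19 not called, 2 also under median-ratio scaling, and 6 without stalk replicate 2. Rps19, the one most often mutated there, was at 155, 212 and 183 RPKM in tip and 141, 154 and 124 RPKM in stalk (0.38, SE 0.14, limma adjusted p = 0.0454). Rps19 was at 0.31 and not called with copies (limma adjusted p = 0.0622), and at 0.15 and not called with the highest row per symbol (limma adjusted p = 0.698). Those not called included Rps7 (0.44), Rps24 (0.26), Rpl11 (-0.15) and Rpl35a (0.30). Rpl12 (0.96, limma adjusted p = 0.000855), Rpl36a (0.90, limma adjusted p = 0.0107) and Rpl30 (0.70, limma adjusted p = 0.00313) completed the 8 called symbols with the largest fold changes toward tip, all of them under 100 RPKM in the mean over the 6 libraries. With copies, which held 88.3% of its total, Rpl36a was at 0.38 and not called (limma adjusted p = 0.0633), and it was not called with the highest row per symbol (0.0615).

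Paralogs gave the single exception toward stalk. Rps4y2, a RefSeq synonym of Rps4l, which is annotated there as a transcribed pseudogene, was at 28.3, 22.0 and 28.8 RPKM in tip and 48.2, 70.9 and 79.3 RPKM in stalk (-1.27, SE 0.19, limma adjusted p = 0.000804). Its X-linked counterpart Rps4x was at 107, 111 and 112 RPKM in tip and 76.4, 94.5 and 79.8 RPKM in stalk (0.40, SE 0.10, limma adjusted p = 0.0126). The groups of the 2 symbols did not overlap, in opposite directions. Rpl7l1 (0.47, limma adjusted p = 0.00817) and Rpl36al (0.26, limma adjusted p = 0.0392) were higher in tip, as were Rpl7 (0.58) and Rpl36a (0.90). Rps27l was not called (0.17, limma adjusted p = 0.199). Rpl22l1 was at 10.1, 9.83 and 11.1 RPKM in tip and 4.31, 2.72 and 10.5 RPKM in stalk, where stalk replicate 3 lay among the tip libraries (0.89, SE 0.35, limma adjusted p = 0.0685), beside Rpl22 at 0.35 (limma adjusted p = 0.0243).

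Fold changes were widely spread by symbol and narrow once copies were added. Across 60 tested genes whose copies held at least 10% of the total, the fold changes by symbol had an SD of 0.30 and ran from -0.35 (Rpl24) to 1.05 (Rps6). Across 18 genes with copies under 10%, the SD was 0.11 and the range 0.17 to 0.63. With copies added, all 80 genes had an SD of 0.12, a range of -0.07 to 0.75 and a median of 0.34. Of the 78 genes tested both ways, 32 were called higher in tip by both, 13 only with copies, 5 only by symbol and 28 by neither. Of 166 matched copies tested, 61 (36.7%, against 26.1% of all genes) were higher in tip and none in stalk, with a median log2 fold change of 0.32.

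**Figure D5:**
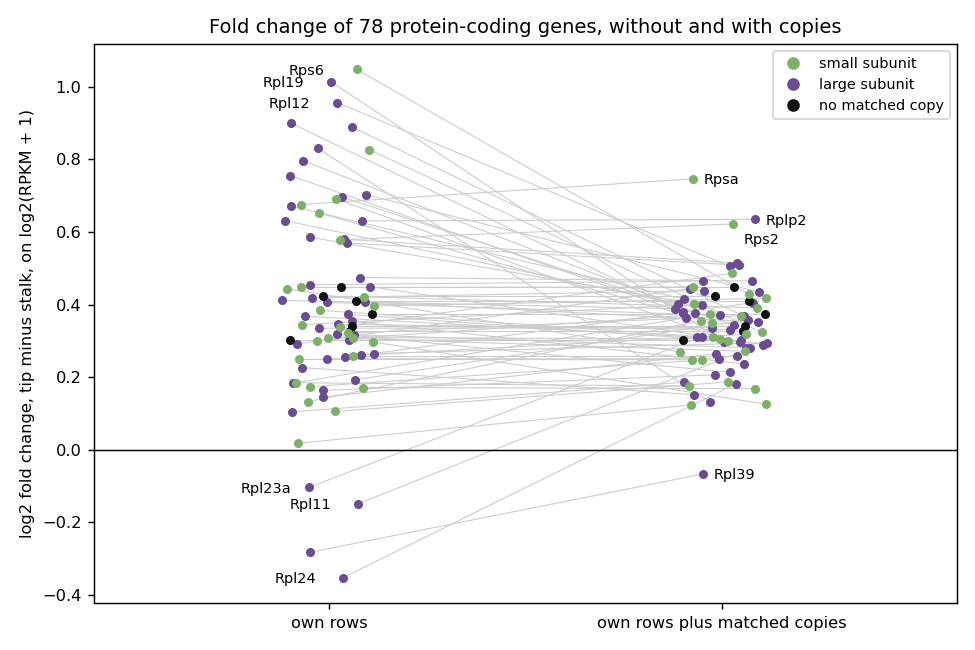
Log2 fold change (tip minus stalk, vertical) of 78 protein-coding genes from their own rows (left) and with matched copies added (right), a line joining each gene and black points marking genes with no copy. The points spread from -0.35 to 1.05 on the left and draw together on the right, where Rpsa is highest and Rpl39 alone lies under 0.

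Within groups the members varied together by library. Of the 82 tested symbols, 43 were lowest in tip replicate 1 within tip, while 37 were highest in tip replicate 2 and 35 in tip replicate 3. Among stalk libraries 52 were highest in replicate 2 and 47 lowest in replicate 1. The mean z-score of the members was 0.33, 0.75 and 0.69 in tip and -1.01, -0.15 and -0.62 in stalk. Among 3609 other genes with at least 20 RPKM, the 10 most like this profile over the 6 libraries had Pearson r of 0.988 to 0.998. They were the copies Gm10275 (of Rpl12), Rps10-ps2 and Rps16-ps2, the symbols Rps23-ps and Gm6863, and Dcun1d5, Gnb2l1, Tomm7, Prcc and Eef1b2. Gnb2l1 is the older symbol of Rack1, a scaffold protein bound to the small subunit, and Eef1b2 is a subunit of the elongation factor that loads transfer RNA.

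Other genes of translation moved partly with the ribosomal proteins. Of 18 other genes known to carry a TOP tract, 11 (61.1%, against 26.1% of all genes) were higher in tip and none in stalk (0 also at an unadjusted p under 0.05), with a median log2 fold change of 0.41. Tpt1 and Pabpc1 lost their calls without tip replicate 2 or stalk replicate 3, and Tpt1 also without tip replicate 3 (limma adjusted p = 0.0522 to 0.0785). Eif4b gained a call toward tip without stalk replicate 2 (limma adjusted p = 0.0396). The largest were Npm1, a nucleolar chaperone (0.99, limma adjusted p = 0.000177), Hnrnpa1, a splicing factor (0.94, limma adjusted p = 0.000105), Nap1l1, a histone chaperone (0.79, limma adjusted p = 0.000374), and Eef1d (0.63, limma adjusted p = 0.00174). Eef1a1, the highest of the list, was not called, at 1347, 1528 and 1455 RPKM in tip and 1185, 1359 and 1177 RPKM in stalk (0.22, limma adjusted p = 0.134). Eef2 was not called either (0.09, limma adjusted p = 0.446). Fau, a ribosomal protein fusion outside the symbol rule, was not called (-0.08), while Rack1 was at 620, 684 and 658 RPKM in tip and 440, 526 and 495 RPKM in stalk (0.43, limma adjusted p = 0.00939).

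Of 11 chaperones that escort single ribosomal proteins to assembly, 8 (72.7%, against 26.1% of all genes) were higher in tip; the median of the 11 log2 fold changes was 0.42. The count was 5 without tip replicate 3, 5 without stalk replicate 3 and 5 with the replicate number as a block, where Brix1, Heatr3 and Ltv1 lost their calls. Rrs1, which helps load the 5S particle, was at 14, 16.2 and 14.9 RPKM in tip and 8.79, 6.53 and 8.02 RPKM in stalk (0.87, limma adjusted p = 0.000898). Nap1l1 (0.79), Bccip, known as a chaperone of Rpl23 (0.74), and Grwd1, known as a chaperone of Rpl3 (0.71), followed. Aamp was called higher in stalk (-0.26, limma adjusted p = 0.0312), but not without any single library (0.0523 to 0.12), and the other 2 were not called. Mitochondrial ribosomal protein genes, of the separate ribosome inside mitochondria, gave 11 of 75 (14.7%, against 26.1% of all genes) higher in tip and 1 (1.33%, against 22.5%) in stalk, with a median of 0.10. Without tip replicate 3 these counts were 1 and 4, and without tip replicate 1 they were 2 and 0. Without stalk replicate 1 they were 6 and 7, and without stalk replicate 3 they were 6 and 1. The counts among all genes were 2541 and 2438 of 12516 without tip replicate 3, and 2511 and 2256 of 12526 without tip replicate 1. They were 2992 and 2861 of 12517 without stalk replicate 1, and 2910 and 2289 of 12500 without stalk replicate 3.

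Among 12 regulators of ribosomal protein synthesis, 4 were higher in tip, where 26.1% of all genes were. None was higher in stalk (1 at an unadjusted p under 0.05), where 22.5% of all genes were, and the median was 0.05. The count toward tip was 2 without any single tip library or stalk replicate 2. Mycn, a Myc family transcription factor, was at 16.4, 17.9 and 12.8 RPKM in tip and 1.28, 0.97 and 0.91 RPKM in stalk (3.02, SE 0.16, limma adjusted p = 7.87e-06). Myc itself was at 46.7, 120 and 61.8 RPKM in tip and 89.5, 51.0 and 44.5 RPKM in stalk, with tip replicate 2 and stalk replicate 1 the highest, and was not called (limma adjusted p = 0.586). Eif4ebp2 (0.48), Larp1 (0.32) and the S6 kinase gene Rps6kb1 (0.29) were called with smaller changes. Larp1 lost its call without any tip library or without stalk replicate 1 or 2 (limma adjusted p = 0.0848 to 0.136), Rps6kb1 lost it without any tip library or without stalk replicate 2 or 3 (0.0627 to 0.101), and Mtor was not (0.04, limma adjusted p = 0.799). In the p53 arm that senses unassembled ribosomal proteins, Trp53 (1.21, limma adjusted p = 0.000333) and Mdm2 (0.35, limma adjusted p = 0.0225) were higher in tip. Mdm2 was not called without tip replicate 1, tip replicate 2 or stalk replicate 3 (0.056, 0.0706 and 0.0664). The p53 target Cdkn1a was higher in stalk (-1.28, limma adjusted p = 0.0404) with overlapping groups, and that call was lost without tip replicate 1, tip replicate 3, stalk replicate 1 or stalk replicate 2 (limma adjusted p = 0.121, 0.101, 0.106 and 0.072).

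Motifs in the promoters were not used by the symbol rule. Most member windows lacked CCGGAAG and most lacked AAGATGG, while CTTTCC stood in 50% of them on either strand. Over the whole window each motif stood in a larger share of member windows than of all windows. RefSeq start windows, from 250 bases before to 50 after the start, were found for 64 of the 89 symbols, 76 windows in all, and were set beside 32851 windows of all genes. The ETS factor motif CCGGAAG stood on either strand in 35.5% of member windows and 8.86% of all. The YY1 motif AAGATGG stood on either strand in 15.8% and 6.34%. Between 10 bases before and 20 after the start on the sense strand, CCGGAAG stood in 7.89% of member windows and 1.01% of all, and AAGATGG in 0 member windows and 0.41% of all. CTTTCC, a pyrimidine run like the start of a TOP tract, stood there in 13.2% (10 windows) and 1.28%. Anywhere on either strand it stood in 50% of member windows (38 windows) and 26.6% of all. The first pair of motifs can share the letters AAG within a single site, and a match is a description, not a bound site. The windows of Rpl38, Rpl15 and Rps10 are printed because they are those with that run whose genes were called higher in tip. Other windows with the run are not printed, and a link between the run and the level in tip was not tested. Each of these genes lost its call without at least 1 library. The printed windows go from 80 bases before to 20 after the start, in the sense direction, with CCGGAAG and CTTTCC in capitals.
Rpl38: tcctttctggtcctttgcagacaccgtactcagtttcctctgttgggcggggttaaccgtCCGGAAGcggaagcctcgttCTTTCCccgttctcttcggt
Rpl15: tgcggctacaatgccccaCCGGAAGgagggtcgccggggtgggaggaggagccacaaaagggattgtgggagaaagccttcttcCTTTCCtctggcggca
Rps10: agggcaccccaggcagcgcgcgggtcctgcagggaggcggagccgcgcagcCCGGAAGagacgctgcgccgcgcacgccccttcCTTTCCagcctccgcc

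The sequences are from RefSeq on GRCm38.p6, for Rpl38 at chr11:114668500-114668599 on the plus strand, for Rpl15 at chr14:18270967-18271066 on the minus strand and for Rps10 at chr17:27635225-27635324 on the minus strand. Rpl38, whose loss shortens the tail and alters the skeleton in mouse, was at 11.2, 16.3 and 13.7 RPKM in tip and 10.1, 7.85 and 6.40 RPKM in stalk (0.70, SE 0.19, limma adjusted p = 0.0144). Its groups did not overlap, and with copies the fold change was 0.34 and not called (limma adjusted p = 0.0945). Rpl15 was at 42.4, 49.0 and 49.5 RPKM in tip and 39.4, 38 and 37.0 RPKM in stalk (0.29, SE 0.10, limma adjusted p = 0.0351). Rps10 was at 18.7, 32.5 and 28.9 RPKM in tip and 16.9, 20.6 and 12.2 RPKM in stalk, with tip replicate 1 among the stalk libraries.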

How the data were processed

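Messenger RNA of 3 tip and 3 stalk samples was sequenced from stranded libraries, per the labels' protocols. Tools listed in the submitters' processing notes are Partek, TopHat2 and bcl2fastq 2.17, with mm10 as the build. Not given in the sources used here are the annotation, how multiply matching reads were treated and whether strand was used in quantification. The deposited values are RPKM computed by the authors, in 1 table of 93615 rows; 24545 rows with a question mark in all 6 columns were dropped, and rows of a symbol were summed. In that table, 59 of the members had several rows. RPKM is not a count, so no count model was used.

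The test was limma 3.58.1 (R 4.3.3), a two-sided linear model of group with a mean-variance trend, applied to log2(RPKM + 1) of the 12532 genes that averaged 1 RPKM or more. P-values were adjusted by Benjamini-Hochberg across those genes, with calls at 0.05. A fold change is the tip mean less the stalk mean on that scale, which understates the change of low genes. Simulated data in which 200 of 12532 genes were changed served only to check that the fit runs properly. There 22.4%, 64.2% and 95.5% of changes of 0.5, 1 and 2 log2 units were called, and 5.47% of calls were false. In the sorted libraries a far larger share of genes was called, 26.1% toward tip and 22.5% toward stalk. The adjusted p depends on that share, so the simulated percentages give no estimate of missed or false calls among the genes reported here. Copies were matched with BLAST 2.17.0 on GENCODE M21 transcripts. Of the members with values, 80 are protein-coding there.

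Sums, ratios and medians over members carry no test. The members and gene lists were chosen with earlier results of these data known. Named were the 10 highest members, the 8 called members with the largest fold change toward each group, members under 1 RPKM, role and paralog genes, and from each other list up to 4 called genes of largest change; others, such as Rpl38, Rpl15, Rpl24, Eef2, Myc, Mtor and genes without copies, were chosen after their values were seen. Some genes that the rule names are not reported here by name, though they stay in counts, sums and medians. 15 alternatives were planned and 2, with copies, were added after seeing the data.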

Additional observations from a re-analysis of the deposited data

How the results depend on the processing

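The direction of the ribosomal protein result held under every alternative run: the median log2 fold change stayed above 0, and more members were called higher in tip than in stalk. The count of members higher in tip (39) ranged from 25 (without tip replicate 3) to 50 (without stalk replicate 2) with 1 library left out. In the large subunit (25) it ranged from 15 to 32, and in the small subunit (14) from 9 to 18. With no filter on low values the small subunit had 9. Calls toward tip among all genes ranged from 2511 (without tip replicate 1) to 3077 (without stalk replicate 2) with 1 library left out. Members higher in stalk (1) ranged from 1 to 2 with 1 library left out, and numbered 2 under median-ratio scaling and 4 without tip replicate 2 and stalk replicate 1. Of these, large subunit genes ranged from 0 to 1, and numbered 1 under median-ratio scaling and 3 without both libraries. With 1 library left out, the median log2 fold change ranged from 0.33 to 0.47 over all members and from 0.34 to 0.48 in the large subunit, and was 0.29 and 0.30 without both libraries, 0.31 and 0.32 under median-ratio scaling, and 0.29 in each with copies and that scaling. Small over large subunit RPKM was 0.63 with matched copies. Median-ratio scaling gave 32 members higher in tip. With the replicate number as a block, 35 members were higher in tip (22 large and 13 small) and 1 in stalk. Libraries with the same number did not deviate together (r = -0.303, -0.335 and 0.093). No library correlated best with its own number, so the numbers were not taken as pairs. The best matches were tip replicate 1 with stalk replicate 3 (0.334), 2 with 1 (0.559) and 3 with 2 (0.397). Whether these libraries share an origin was not tested. Some uncalled genes changed sign. Rpl11 was at 0.035 with the highest row per symbol, at 0.13 without stalk replicate 2, at 0.07 without stalk replicate 3, at 0.0066 without tip replicate 1, at -0.94 without tip replicate 2 and stalk replicate 1, and at 0.28 with copies or 0.23 with copies and median-ratio scaling. Rpl23a was at 0.82 without stalk replicate 2 and -0.65 without stalk replicate 3, and at 0.31 with copies or 0.26 with copies and scaling. Rplp1 was at -0.10 without tip replicate 2 and stalk replicate 1. Rps28 was at -0.031 under median-ratio scaling, -0.15 without stalk replicate 1, -0.15 without both libraries, -0.059 without tip replicate 3 and 0.20 without stalk replicate 3. Rpl24 was at 0.18 with copies, 0.13 with copies and scaling and 0.21 with the highest row per symbol. Among other genes, with 1 library left out, Fau ranged from -0.30 to 0.13, Mtor from -0.010 to 0.11 and Myc from -0.13 to 0.55, and Mtor was at -0.0040 under median-ratio scaling. The causes were not tested. Over the named genes, 1127 values kept their direction and side of the threshold, 156 lost their call, 32 gained one and 21 changed sign. The depth is unknown, so no limit of detection is given for the symbols near 0.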
